A study of Homo sapiens with 8 samples.

Results

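The response of human HAP1 cells to CRISPRi against NELFE was described from RNA-seq of 3 NELFE knockdown libraries and 3 control libraries. These are 6 of the 8 libraries of the data set, and the other 2, of cells with NELFB knocked down, were kept out of the comparison. HAP1 is a near-haploid human line derived from a chronic myeloid leukaemia. All groups came from 1 clone that stably expressed dCas9-KRAB, a cleavage-dead Cas9 joined to a repressor domain, and each gene was targeted with 1 guide RNA. The knockdown cells carried the NELFE guide. The control cells carried a guide against ADAM22, which encodes a membrane protein. RNA was taken 144 h after transduction, and cells without a guide were removed with puromycin, which was added at 48 h. The libraries were made from poly(A) RNA and read as single ends of 65 bases. Of 60725 genes in the count table, 32437 had a read in the 6 libraries and 15966 passed the count filter and were tested.

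NELFE is the RNA-binding subunit of the negative elongation factor NELF, which also holds NELFA, NELFB and NELFCD. Together with DSIF (SUPT4H1 and SUPT5H), NELF holds RNA polymerase II shortly after initiation, a state known as promoter-proximal pausing. The kinase P-TEFb, made of CDK9 and a cyclin T, phosphorylates DSIF, NELF and the polymerase and so allows elongation, and HEXIM proteins with the 7SK RNA keep P-TEFb inactive. NELF is also known to act with the cap-binding complex in 3′ end formation of replication-dependent histone mRNAs, and paused polymerase is a known feature of immediate early and heat shock genes.

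The guide RNA was matched to GRCh38 to show what the repressor was directed to. Its 19 bases cover positions 31958918 to 31958936 of chromosome 6 (minus strand) and are followed by GGG as the PAM. NELFE transcription begins at 31958971 in the canonical annotation, and the target lies 35 bases further downstream, within the leader encoded by exon 1 (31958892 to 31958971). No other perfect match beside an NGG PAM was found in the main chromosomes, so that the number of matches was 1. The stretch chr6:31958911-31958940 is given on the minus strand, with the bases matched by the guide in capitals and the PAM directly after them.
NELFE guide target: gcgcGGGCGCGGCCGGAGACCGTggggccc
SKIC2, a helicase of the cytoplasmic RNA exosome pathway, starts on the opposite strand at 31959175, which is 239 bases from the target. The microRNA gene MIR1236 was the only other gene with a start within 10000 bases and was not among the genes tested.

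The libraries were compared before the genes. Between 22037423 and 24444185 reads were counted per library, so that depth differed little. On a principal component analysis of log2 CPM (read counts divided by library size with TMM scaling factors, given below as normalized CPM), the leading component held 49.4% of the variance and separated the groups. The next component held 28.3% and ran across the groups. Control 3 and NELFE knockdown 3 lay low on it at -25.0 and -25.4, and control 1 lay high at 30.5. Control 1 and control 3 differed by more than 1.5-fold at 2712 genes, against 800 genes for NELFE knockdown 1 and 2. Pearson correlations between libraries of a group ran from 0.9865 to 0.9951, and no pair of libraries was a copy of another. The labels name no batch, but both replicate 3 libraries lay low on this component. Fits with the replicate number as a block, and without both replicate 3 libraries, are given at the end. What the component stands for was not tested.

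NELFE RNA itself was measured to check the labels. NELFE stood at 50.4, 49.2 and 47.6 normalized CPM in the control libraries and at 2.41, 2.37 and 2.96 in the knockdown libraries. Every knockdown library was far below every control library, by 19-fold in the fit (log2 fold change -4.25, SE 0.119, edgeR adjusted p = 1.57e-06). NELFA, which binds the polymerase, fell as well, from 52.7, 48.5 and 51.8 to 40.4, 38.5 and 36.9 normalized CPM (log2 fold change -0.40, edgeR adjusted p = 0.0204). NELFB had a log2 fold change of -0.24 (edgeR adjusted p = 0.0684) and NELFCD of 0.21 (edgeR adjusted p = 0.0860), and neither passed the threshold of 0.05.

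Other genes of the pausing machinery were called at shares near the 5.93% of all tested genes that rose. Of 9 genes for DSIF, P-TEFb and its 7SK regulators, 1 rose (11.1%). HEXIM1, the inhibitor of P-TEFb, went from 36.4, 41.5 and 42.0 to 52.3, 54.8 and 48.1 normalized CPM (log2 fold change 0.37, edgeR adjusted p = 0.0388), with no overlap between the groups. This call was lost in 5 of the 6 comparisons with a library left out. SUPT5H had a log2 fold change of 0.28 (edgeR adjusted p = 0.0743), CDK9 of 0.18 (0.205) and CCNT1 of -0.13 (0.257). Of 20 tested genes for other elongation factors 1 rose (5%), namely CDC73, a subunit of the PAF1 complex (log2 fold change 0.39, edgeR adjusted p = 0.0263), and the log2 fold changes of the list ran from -0.16 to 0.39. Of 15 Integrator genes, which encode a complex that cleaves nascent RNA, 1 rose (6.67%), namely INTS3 (log2 fold change 0.31, edgeR adjusted p = 0.0382). With a library left out, NELFA was called in 2 of 6 fits, CDC73 in 3 and INTS3 in 1.

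SKIC2, the neighbour of the NELFE guide target, and ADAM22 both differed. SKIC2 stood at 56.7, 57.2 and 55.9 normalized CPM in control and at 42.7, 43.1 and 35.1 in the knockdown, with no overlap (log2 fold change -0.49, SE 0.0967, edgeR adjusted p = 0.0190), and it was called in 3 of the 6 fits with a library left out. Whether the repressor at the NELFE start acts on SKIC2 was not tested. ADAM22, the target of the control guide, stood at 13.7, 12.8 and 11.1 in control and at 40.2, 47.4 and 29.7 in the knockdown (log2 fold change 1.64, SE 0.172, edgeR adjusted p = 0.00272). In the NELFB knockdown libraries, which carried another guide, ADAM22 stood at 35.55 and 41.05 (log2 fold change against control 1.60). A lowering of ADAM22 in the control cells and a rise in the knockdown cells cannot be told apart here, since every control library carried that guide. All changes against control given here are relative to cells with the ADAM22 guide.

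**Figure D1:**
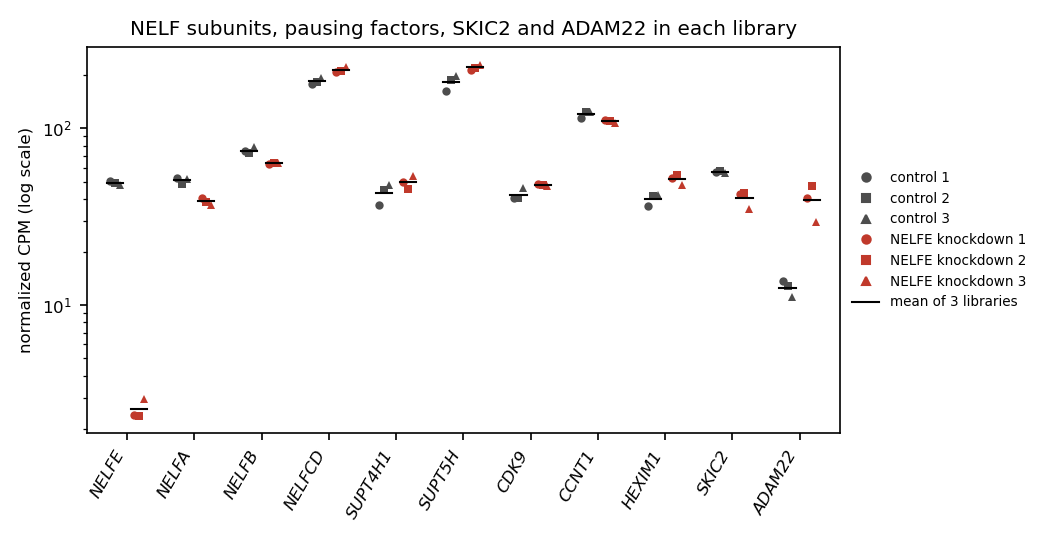
Normalized CPM on a log scale for the 4 NELF subunits, DSIF, CDK9, CCNT1, HEXIM1, SKIC2 and ADAM22, where each point is a library (symbols give the replicate) and lines give the mean of 3. NELFE lies near 2.58 in the knockdown against 49.0 in control, while ADAM22 lies higher in the knockdown.

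Across the transcriptome 947 genes rose (5.93% of those tested) and 811 fell (5.08%), so that 11% were called at an edgeR adjusted p under 0.05. At an unadjusted p under 0.05 there were 4584 genes. The median change of the called genes was 1.73-fold up (log2 0.79) and 1.42-fold down (log2 -0.51), beside a median log2 of -0.003 over all tested genes. More than 2-fold, 347 genes rose and 79 fell, and more than 4-fold, 75 rose and 4 fell. Among the called genes the groups did not overlap for 946 of the 947 that rose and for all 811 that fell. Among all tested genes, 17.4% had every knockdown library above every control library, and 16.6% had every one below.

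The numbers depended on single libraries. They were 207 higher and 144 lower without NELFE knockdown 1, 289 and 166 without NELFE knockdown 2, 249 and 200 without control 2, and 484 and 463 without control 3. Without NELFE knockdown 3 they were 1248 and 1064. In all 6 of these fits 173 genes were called higher and 118 lower, and no called gene changed its direction in any fit. Called genes with few control reads were all increases. Of 349 tested genes with under 10 reads on average in control, 90 rose, while among the other 15617 the numbers were 857 higher and 811 lower. Such genes enter the test through the group in which they are high. Without them the median increase was 1.63-fold, beside the 1.42-fold decrease, and 257 genes rose more than 2-fold and 33 more than 4-fold.

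**Figure D2:**
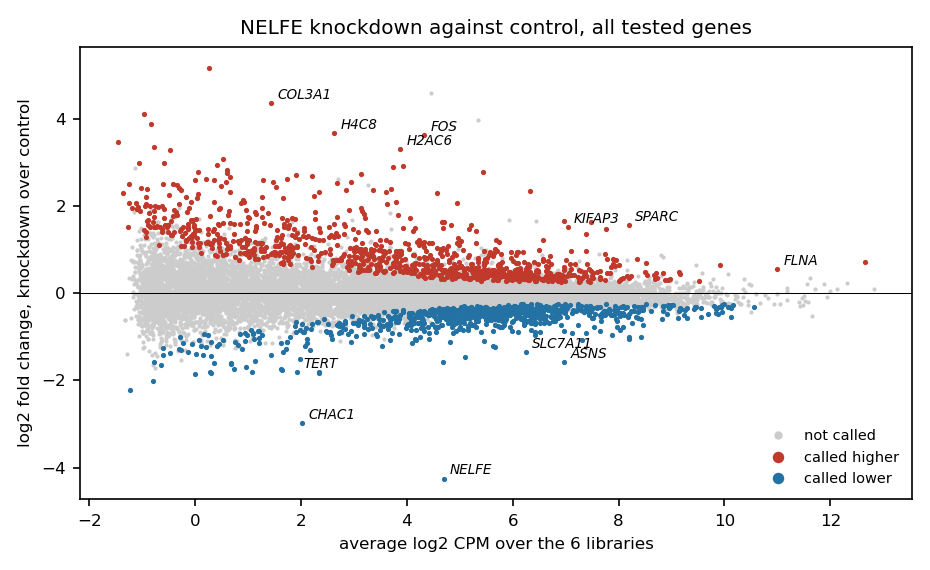
Log2 fold change of the knockdown over control (y axis) against the average log2 CPM of the 6 libraries (x axis) for the 15966 tested genes, with the 947 called higher in red and the 811 called lower in blue. Large increases lie mainly at low expression, NELFE is the lowest point at -4.25, and COL3A1, the highest of the named points at 4.36, had 5 to 7 reads in the control libraries.

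Replication-dependent histone genes had the highest median change of the gene lists examined. Their mRNAs normally end in a stem-loop without a poly(A) tail, so that few reads are seen in poly(A) libraries. A rise here therefore means more reads from histone RNA with a tail. More histone RNA and a larger share of it with a tail cannot be told apart in these libraries. Of 67 genes on the list, 63 were matched, 17 of those had no read in the 6 libraries, and 20 were tested. Of these 20, 19 rose, beside 5.93% of all genes, with a median log2 fold change of 2.13. The remaining member, H1-4, had a log2 fold change of 0.76 (edgeR adjusted p = 0.219). Since 4 of the 20 had under 10 reads on average in control, the members with more were counted apart. They numbered 16, of which 15 rose, with a median of 1.88. The highest count of an untested member was 14 in any library. Summed over the list, the level was 27.1, 35.1 and 36.1 normalized CPM in control and 204, 161 and 128 in the knockdown, and the groups did not overlap.

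All histone classes were among the genes that rose. H1-2, a linker histone, went from 2.60, 4.02 and 3.94 to 38.1, 24.9 and 16.6 normalized CPM. H2AC6 went from 1.76, 3.18 and 3.16 to 33.6, 24.9 and 21.3 (log2 fold change 3.30, SE 0.256, edgeR adjusted p = 0.00102). H4C8 went from 0.359, 1.10 and 1.21 to 13, 11 and 10.0 (log2 fold change 3.68, SE 0.332). In each of these genes the lowest knockdown library was replicate 3 and was still several times the highest control library. Other members that rose were H2BC21 (log2 fold change 2.88), H2BC12 (2.32) and H4C9 (1.94), with the smallest called increases in H2BC15 (1.05) and H2AC11 (1.10). H3 was represented by H3C10 (1.82) and H3C8 (1.62). H2BC20P, a histone pseudogene, went from 11.7, 13.1 and 12.4 to 39.6, 42.2 and 32.6 (log2 fold change 1.62, edgeR adjusted p = 8.01e-04). Near-identical histone copies share reads that were not counted, so the values of single members are uncertain. The count of 19 became 12 without NELFE knockdown 1 and stayed at 13 or more without any other library.

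**Figure D3:**
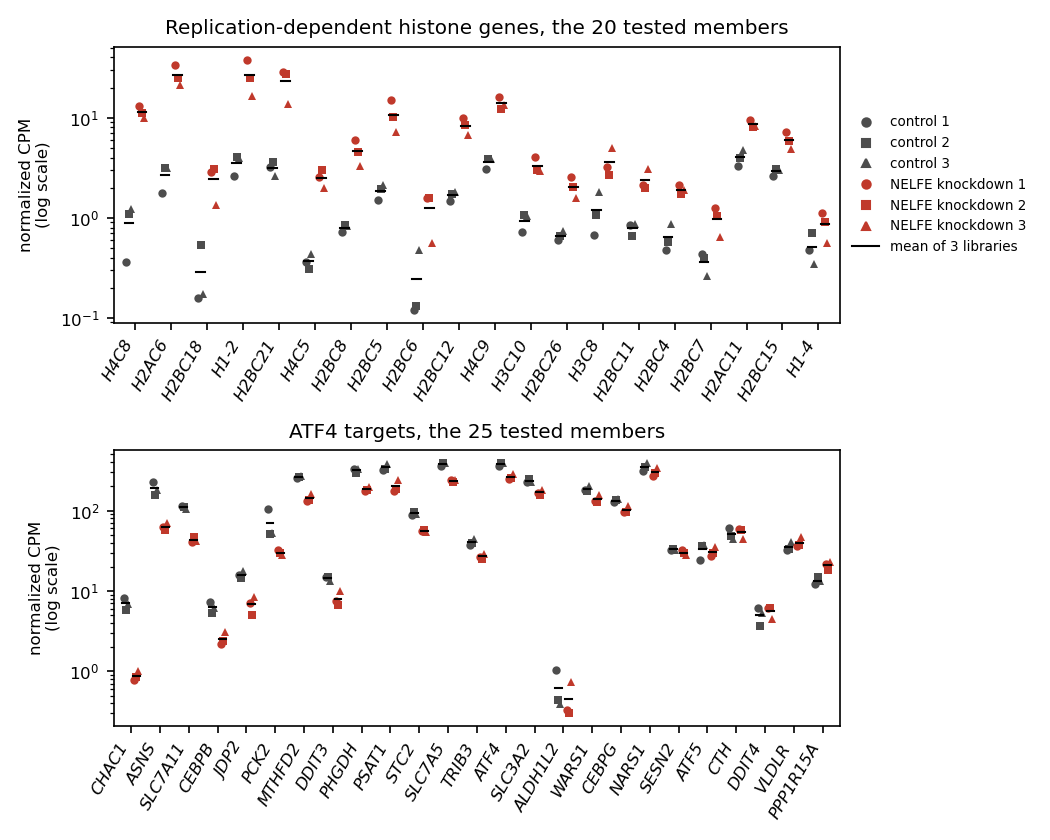
Normalized CPM on a log scale in each library for the 20 tested histone genes (top) and the 25 tested ATF4 targets (bottom), ordered by fold change, with lines for the mean of 3 libraries. Nearly all histone genes lie higher in the knockdown, and 17 of the 25 ATF4 targets were called lower.

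Most targets of the factor ATF4 fell. ATF4 is the transcription factor of the integrated stress response, which is translated when eIF2 is phosphorylated and which switches on amino acid synthesis and transport. Of 25 tested ATF4 targets 17 fell (68%, beside 5.08% of all tested genes) and 1 rose, with a median log2 fold change of -0.59. The list summed to 3244, 3232 and 3404 normalized CPM in control and to 2046, 2058 and 2333 in the knockdown. CHAC1, which degrades glutathione, stood at 8.18, 5.87 and 6.97 in control and at 0.788, 0.861 and 1.02 in the knockdown (log2 fold change -2.98, SE 0.215, edgeR adjusted p = 7.50e-04). ASNS, the asparagine synthetase, went from 229, 156 and 181 to 61.9, 57.4 and 69.6 (log2 fold change -1.58, SE 0.143). SLC7A11, the cystine transporter, went from 113, 111 and 105 to 40.6, 46.3 and 42.0 (log2 fold change -1.35, SE 0.0817, edgeR adjusted p = 5.99e-04). The groups were far apart in all of these.

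ATF4 itself fell, from 358, 390 and 390 to 249, 251 and 282 normalized CPM (log2 fold change -0.54, edgeR adjusted p = 0.00784). So did CEBPB (-1.31) and DDIT3 (-0.84), which encode factors that bind with ATF4, and TRIB3 (-0.59), which inhibits it, all as log2 fold changes. STC2, a secreted glycoprotein, had a log2 fold change of -0.73. The gene that rose was PPP1R15A, a phosphatase subunit that reverses eIF2 phosphorylation, from 12.3, 14.8 and 13.4 to 21.6, 18.5 and 22.7 (log2 fold change 0.63, edgeR adjusted p = 0.0179). ADM2, a peptide hormone gene outside the list, fell from 10.1, 6.58 and 6.28 to 2.03, 2.15 and 2.41 (log2 fold change -1.80). Without NELFE knockdown 1 the number of targets that fell was 9 and without NELFE knockdown 2 it was 10, while it was 12 or more without any other library.

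Promoters of ATF4 targets were searched for TGATGNAA, the core of the element that ATF4 binds with a C/EBP partner, on both strands. The windows were those of RefSeq on GRCh38.p14, from 250 bases before to 50 after each start. Of the 23 targets with a window, 6 (26.1%) held the motif, namely 5 of the 16 that fell and 1 of the other 7. Among all tested protein-coding genes with a window (81.3% of them) the share was 2.80%, and among those that fell it was 4.86%. The list was chosen as ATF4 targets, so its higher share than all genes is not a result of these data. Of the 5, the 4 with a match before the start are shown with the motif in capitals, on the strand of the gene.
ASNS (chr7:97872449-97872496, minus strand): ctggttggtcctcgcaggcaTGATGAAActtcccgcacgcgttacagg
CEBPG (chr19:33374051-33374098, plus strand): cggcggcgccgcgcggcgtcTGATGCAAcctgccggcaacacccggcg
CHAC1 (chr15:40953242-40953289, plus strand): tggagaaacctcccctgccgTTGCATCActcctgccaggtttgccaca
JDP2 (chr14:75427986-75428021, plus strand): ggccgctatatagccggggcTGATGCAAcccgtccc
In CHAC1 the motif is on the opposite strand, and its bases begin 209 bases upstream of the start. The distances were 68 bases in ASNS, 42 in CEBPG and 16 in JDP2. A match describes the sequence and is not evidence of binding. The motifs TGACGTCA, TGANTCA and GGAATG had been chosen for immediate early genes and YAP-TEAD targets, but under 80% of those members had a window, and the comparison is void.

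Lists of genes that supply or load amino acids also held genes that fell, beside 5.08% of all tested genes. Of 20 cytosolic aminoacyl-tRNA synthetases, which load tRNAs, 11 fell (55%, median log2 fold change -0.32). AARS1, for alanine, went from 334, 290 and 305 to 161, 152 and 166 normalized CPM (log2 fold change -0.95, edgeR adjusted p = 0.00132). VARS1 (-0.63), YARS1 (-0.57) and CARS1 (-0.50) were further examples of log2 fold changes. Of 19 amino acid transporters 8 fell (42.1%) and 1, SLC7A8, rose (0.79). SLC1A5, the glutamine carrier, went from 213, 218 and 222 to 112, 113 and 124 (log2 fold change -0.91). SLC7A5 (-0.69) and SLC7A1 (-0.58) fell by less. Of 14 serine and one-carbon enzymes 5 fell (35.7%) and 1 rose. PHGDH, which opens serine synthesis, had a log2 fold change of -0.79, the mitochondrial enzyme MTHFD2 of -0.87 and PSAT1 of -0.78, while MTHFD2L rose by 0.48.

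These lists share members with the ATF4 list, namely 2, 3 and 4 of their genes in the order given. Without those members, 10 of 18 synthetases fell, as did 5 of 16 transporters and 2 of 10 serine and one-carbon enzymes. The synthetases depended on single libraries, with 2 called lower without NELFE knockdown 1 or 2 and 6 without control 2 or control 3. For the serine and one-carbon enzymes the number was 2 without NELFE knockdown 1 or 2. For the transporters it stayed between 7 and 9. The increases of SLC7A8 and MTHFD2L were each called in 2 of the 6 fits with a library left out.

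Genes tied to ribosomes were lower in part. Small nucleolar RNAs (snoRNAs), which guide the modification of ribosomal RNA, are cut from the introns of host genes that carry a 5′ terminal oligopyrimidine tract. Of 23 tested host genes 13 fell (56.5%, beside 5.08% of all genes), with a median log2 fold change of -0.48. SNHG29 went from 452, 457 and 470 to 224, 223 and 239 normalized CPM (log2 fold change -1.01, SE 0.0702, edgeR adjusted p = 7.50e-04). SNHG12 (-1.46), SNHG32 (-0.85) and GAS5 (-0.85) are further log2 fold changes. SNORD104 went from 4.59, 4.81 and 4.46 to 1.45, 0.732 and 1.94 (log2 fold change -1.75). It lies within the host gene SNHG25 (-1.64), and counts without strand and with short RNAs largely lost make its level uncertain. The number of host genes that fell was 8 without NELFE knockdown 1 or without NELFE knockdown 2.

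Of 79 genes for cytosolic ribosomal proteins, 29 fell (36.7%, beside 5.08%), with a median log2 fold change of -0.21, and 75 of the 79 were fitted below 0. The largest decrease was that of RPL36A (-0.75), followed by RPL12 (-0.58), RPSA (-0.56), RPLP1 (-0.56) and RPS2 (-0.54). As a share of all counts, ribosomal protein genes took 5.13%, 4.98% and 4.98% in control and 4.37%, 4.31% and 4.29% in the knockdown, with no overlap. The mitochondrially encoded genes took 4.62%, 3.72% and 3.48% in control and 4.26%, 4.47% and 4.36% in the knockdown, where the groups overlapped. The number of ribosomal protein genes called was sensitive to the libraries, with 5 without NELFE knockdown 1 or control 2, 6 without NELFE knockdown 2 and 9 without control 3. IMPDH2, which catalyses the limiting step of guanine nucleotide synthesis, was among the decreases with the smallest p, from 385, 404 and 403 to 191, 200 and 188 (log2 fold change -1.04, SE 0.0702, edgeR adjusted p = 7.50e-04).

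Cholesterol synthesis genes, which the SREBP2 factor controls as a unit, fell in part. Of 25 tested members 11 fell (44%, beside 5.08%), with a median log2 fold change of -0.41, and the list summed to 3387, 3350 and 3361 normalized CPM in control against 2745, 2712 and 2756 in the knockdown. DHCR7, a late enzyme of the pathway, went from 113, 114 and 109 to 78.0, 78.0 and 74.8 (log2 fold change -0.54, edgeR adjusted p = 0.00443). INSIG1, the feedback protein of the pathway, had a log2 fold change of -0.74 and MSMO1 of -0.53. The number called was 3 without NELFE knockdown 1, 2 without NELFE knockdown 2 and 5 without control 2. Of 19 glycolytic enzymes, by comparison, 1 fell, the phosphofructokinase PFKP (-0.30), which was called in 1 of the 6 fits with a library left out.

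Some cell cycle genes fell and some inhibitors rose. Of 40 DNA replication genes 7 fell (17.5%, beside 5.08% of all genes) and 33 were not called, 39 of the 40 were fitted below 0, and the median log2 fold change was -0.29. CDT1, which loads the replicative helicase, went from 78.1, 64.6 and 68.9 to 37.8, 40.2 and 45.6 normalized CPM (log2 fold change -0.78, edgeR adjusted p = 0.00551). PRIM1 (-0.75), E2F2 (-0.68) and POLD1 (-0.60) also fell. Of 30 mitosis genes 6 fell (20%), 1 rose and 23 were not called. HMMR, a spindle protein, went from 217, 217 and 210 to 95.4, 105 and 106 (log2 fold change -1.07, SE 0.0747). AURKB (-0.70), CDC20 (-0.65) and PLK1 (-0.42) fell, while NDC80, a kinetochore subunit, rose by 0.67 on the log2 scale. With a library left out, NDC80 and PLK1 were each called in 2 of the 6 fits, and CDC20 and E2F2 in 3. AURKB and HMMR were called in all 6. The replication count was 3 without NELFE knockdown 1, NELFE knockdown 2 or control 2, and 26 without NELFE knockdown 3. The mitosis count was 2 without NELFE knockdown 1, NELFE knockdown 2 or control 2, 3 without control 3 and 15 without NELFE knockdown 3. In bulk RNA, fewer cells in a phase of the cycle and less RNA per cell cannot be told apart.

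Of 12 genes for CDK inhibitors and D-type cyclins with their kinases, 4 rose (33.3%, beside 5.93%) and 1 fell. CDKN1A, the inhibitor p21, stood at 7.62, 10.9 and 5.63 normalized CPM in control and at 21.1, 72.2 and 25.3 in the knockdown, where NELFE knockdown 2 was far above the others (log2 fold change 2.29, SE 0.468, edgeR adjusted p = 0.0208). CDKN2B, which inhibits CDK4 and CDK6, went from 2.83, 3.09 and 3.42 to 9.0, 9.90 and 16.3 (log2 fold change 1.91). CDKN1C rose with a log2 fold change of 1.88. CCND1, cyclin D1, which acts against these inhibitors, rose as well, from 4.75, 4.72 and 4.89 to 19.9, 13.2 and 26 (log2 fold change 2.04, SE 0.234), and CDK6 fell (-0.44). The groups did not overlap for any of these 5 genes. CCND1 and CDKN2B were called in all 6 fits with a library left out, CDK6 in 4, CDKN1A in 3 and CDKN1C in 2. The number that rose was 2 without control 2 or control 3.

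TERT, the catalytic subunit of telomerase, was among the largest decreases. It stood at 7.23, 4.55 and 5.46 normalized CPM in control and at 1.58, 1.55 and 1.76 in the knockdown (log2 fold change -1.82, SE 0.221, edgeR adjusted p = 0.00406), and was called with any of the 6 libraries left out. Of the 12 telomerase and shelterin genes, NHP2 also fell (-0.31) and TERF2IP rose (0.31), but neither was called once any library was left out.

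Genes that respond within minutes to growth signals rose in part. Of 29 tested immediate early genes 7 rose (24.1%, beside 5.93% of all genes) and 1 fell, with a median log2 fold change of 0.29. FOS, a subunit of the factor AP-1, stood at 4.03, 3.88 and 1.04 normalized CPM in control and at 33.8, 70.2 and 7.22 in the knockdown (log2 fold change 3.63, SE 0.776, edgeR adjusted p = 0.0238). The lowest knockdown library was less than 2-fold above the highest control library, and the spread within the knockdown was about as large as the difference. BTG2, an inhibitor of proliferation, went from 53.1, 68.9 and 49.4 to 130, 164 and 104 (log2 fold change 1.22, edgeR adjusted p = 0.00742). ZFP36L1 (0.95), KLF10 (0.95) and ARC (1.49) also rose, and KLF6 fell (-0.47). FOS was called in 1 of the 6 fits with a library left out, as was KLF6, and ARC in 3. EGR1, a factor of the same class, stood at 18.6, 59.8 and 9.27 in control and at 60.4, 194 and 23.7 in the knockdown (log2 fold change 1.67, edgeR adjusted p = 0.273). In both groups of EGR1 replicate 2 was highest and replicate 3 lowest, and the groups overlapped.

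Of 16 tested feedback genes of the ERK pathway 4 rose (25%, beside 5.93%) and 1 fell. SPRED3, an inhibitor of RAS signalling, went from 3.39, 4.10 and 3.08 to 9.16, 9.51 and 7.22 normalized CPM (log2 fold change 1.29). ERRFI1 (0.92), PHLDA1 (0.95) and ETV5 (1.24) rose, while SPRED2 fell (-0.52). With a library left out ETV5 was called in 1 of the 6 fits, PHLDA1 in 2, SPRED2 in 3 and ERRFI1 in 4. The number of immediate early genes that rose was 3 without NELFE knockdown 1 or control 2 and 4 without NELFE knockdown 2. The number of ERK feedback genes that rose was 2 without control 1 or any of the NELFE knockdown libraries and 1 without control 2.

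Some genes of adhesion, the cytoskeleton and the matrix rose, while most members of these lists were not called. YAP and TEAD are the transcription factors of the Hippo pathway, which respond to cell shape and density. Of 22 tested YAP-TEAD targets 3 rose (13.6%, beside 5.93% of all tested genes), with a median log2 fold change of 0.45. CCN2, a matrix-associated growth factor, went from 4.83, 5.12 and 5.89 to 15.4, 17.6 and 34.3 normalized CPM (log2 fold change 2.08, SE 0.295, edgeR adjusted p = 0.00637). MYOF, a membrane repair protein, went from 9.26, 8.91 and 14.9 to 57.4, 32.2 and 139 (log2 fold change 2.79, SE 0.494). With a library left out, MYOF was called in 3 of the 6 fits and CCN2 in all 6. The log2 fold change of MYOF ran from 2.02 to 3.15 under the alternatives. ANKRD1 stood at 0.160, 1.06 and 4.11 in control and at 13.8, 9.51 and 104 in the knockdown, and did not pass (log2 fold change 4.59, edgeR adjusted p = 0.0619). In CCN2, MYOF and ANKRD1 the replicate 3 library was the highest of its group in both groups. The level summed over the list was 697, 804 and 903 in control and 1013, 917 and 1546 in the knockdown.

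Of 20 actin and contractile genes 4 rose (20%, beside 5.93%). FLNA, which crosslinks actin, went from 1544, 1581 and 1820 to 2512, 2131 and 2629 normalized CPM (log2 fold change 0.56). TAGLN, an actin-binding protein of smooth muscle, went from 3.19, 3.49 and 5.50 to 12.2, 11.2 and 37.1 (log2 fold change 2.31, edgeR adjusted p = 0.0211). VCL rose by 0.41 and ACTN4 by 0.34 on the log2 scale. The YAP-TEAD count was 2 without NELFE knockdown 1 or control 3 and 1 without control 1 or control 2. The actin count was 1 without NELFE knockdown 1 and 2 without control 1 or control 3, and the calls of FLNA, TAGLN, VCL and ACTN4 were each lost without control 2. FLNA and TAGLN were called in 4 of the 6 fits with a library left out and VCL in 3, and the call of ACTN4 was lost without any single library.

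Of 20 tested collagens and matrix genes 8 rose (40%, beside 5.93%) and 1 fell. Of the 18 members with 10 or more reads on average in control, 7 rose. SPARC, which binds collagen, went from 138, 144 and 166 normalized CPM to 491, 333 and 493 (log2 fold change 1.56, SE 0.155). COL4A5, of the basement membrane, went from 130, 165 and 151 to 269, 295 and 269 (log2 fold change 0.90). THBS1, a matrix glycoprotein, stood at 12.7, 29.3 and 37.8 in control and at 115, 85.5 and 204 in the knockdown (log2 fold change 2.34). None of these overlapped. COL3A1, a fibrillar collagen, had 5, 7 and 5 reads in control and 195, 61 and 94 reads in the knockdown, and so entered the test through the knockdown libraries. COL9A3, of cartilage, fell from 4.71, 2.21 and 2.43 to 1.12, 0.646 and 0.880 (log2 fold change -1.82). The number that rose was 4 without NELFE knockdown 1, 5 without NELFE knockdown 2 and 3 without control 2.

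Of 13 tested feedback genes of the BMP and TGF-beta pathways 5 rose (38.5%, beside 5.93%), all 13 were fitted above 0, and the median log2 fold change was 0.69. ID2, an inhibitor of basic helix-loop-helix factors, went from 15.2, 18.7 and 22.7 to 52.0, 54.6 and 60.1 normalized CPM (log2 fold change 1.56, SE 0.144, edgeR adjusted p = 0.00157). ID3 (0.97) and BAMBI, a decoy receptor (1.21), rose too. With a library left out, ID2 was called in all 6 fits, ID3 in 4 and BAMBI in 3. The number that rose was 1 without NELFE knockdown 1 or control 2 and 2 without control 1. Of 20 Notch pathway genes 2 were called higher (10%, beside 5.93%), the ligand JAG1 (0.52) and the target HEY1 (0.84), with a median of 0.003. JAG1 was called in 3 and HEY1 in 2 of the 6 fits with a library left out, and 6 genes of the list were called without NELFE knockdown 3.

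**Figure D4:**
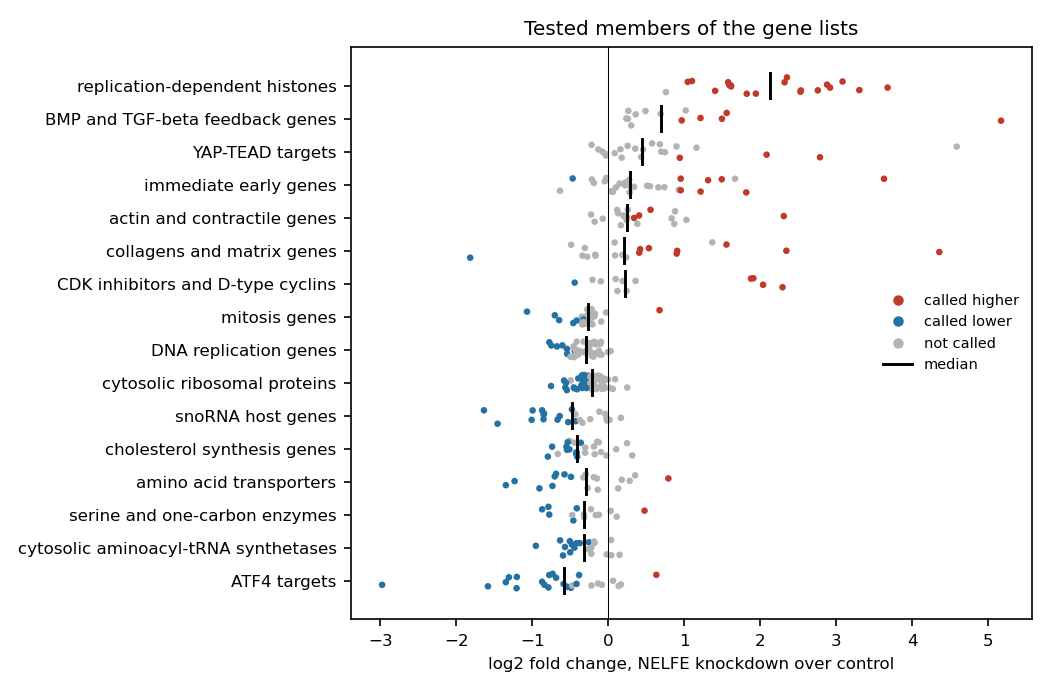
Log2 fold change of each tested member of 16 gene lists (points, with red for called higher, blue for called lower and grey for not called) and the median of each list (black line). Histone genes lie to the right with a median of 2.13, BMP and TGF-beta, YAP-TEAD, immediate early, actin and matrix lists have medians above 0 with few large members, and the amino acid, snoRNA host, ribosomal, cholesterol, replication and mitosis lists have medians below 0.

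Outside the lists, single genes stood out by size or by precision. KIFAP3, an adaptor of kinesin-2, had the smallest p among the increases, from 60.6, 69.7 and 74.0 to 212, 171 and 201 normalized CPM (log2 fold change 1.52, SE 0.109, edgeR adjusted p = 7.50e-04). TSPYL2, a nucleosome assembly protein, went from 43.1, 41.0 and 44.6 to 80.0, 86.4 and 81.3 (log2 fold change 0.94, SE 0.0772). MAP1LC3B, the LC3 protein of autophagosomes, went from 104, 118 and 117 to 235, 214 and 216 (log2 fold change 0.97, SE 0.0823). The groups of these genes were far apart and their libraries close together. GJA1, the gap junction protein connexin 43, went from 0.798, 1.41 and 1.43 to 8.54, 7.40 and 7.55 (log2 fold change 2.69). SYBU, a kinesin adaptor, had a log2 fold change of 2.72, and the pseudogene SSPOP also of 2.72. With a library left out, SYBU was called in all 6 fits and SSPOP in 3. SSPOP stood at 9.87, 6.89 and 2.18 normalized CPM in the knockdown.

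Among the decreases, GRIA2, a glutamate receptor subunit, went from 11.1, 7.72 and 4.29 to 2.03, 3.01 and 1.44 normalized CPM (log2 fold change -1.83, SE 0.376). KISS1R, the kisspeptin receptor, went from 6.55, 4.06 and 3.29 to 2.03, 1.16 and 0.880 (log2 fold change -1.76, SE 0.358). OLMALINC, a long noncoding RNA, went from 60.5, 27.1 and 27.4 to 13.1, 12.3 and 13 (log2 fold change -1.58, SE 0.295). In all 3 genes control 1 was the highest library, and the groups did not overlap. GRIA2, KISS1R and OLMALINC were each called in 4 of the 6 fits with a library left out.

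In the other stress lists few members were called. Of 28 tested heat shock proteins and chaperones 2 rose (7.14%, beside 5.93% of all genes), the near-identical pair HSPA1A (0.72) and HSPA1B (0.80), whose reads cannot all be assigned to a single copy, and the list's median log2 fold change was -0.06. With a library left out HSPA1B was called in 5 and HSPA1A in 2 of the 6 fits. CRYAB, a small heat shock protein, stood at 0.439, 4.55 and 9.79 normalized CPM in control and at 29.5, 23.0 and 176 in the knockdown and did not pass (log2 fold change 3.96, edgeR adjusted p = 0.0660). Of 17 tested interferon-stimulated genes 2 rose (11.8%) and 1 fell, and OAS2, an antiviral synthetase, had the lowest log2 fold change at -1.66 (edgeR adjusted p = 0.0602). STAT2, a signal transducer, rose by 0.73 and BST2 fell by 0.32 on the log2 scale. Of 19 tested genes for the nuclear lamina and inner nuclear membrane 1 fell (5.26%, beside 5.08% of all genes), NRM (-0.70), with a list median of -0.17. NRM was called in 3 of the 6 fits with a library left out, and 3 genes of the list were called without NELFE knockdown 3. STAT2 was called with any library left out, and BST2 in 2 of the 6 fits.

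Markers of other cell types were counted to describe what the cells expressed. With so few members tested, their counts are not read against the 5.93% of all genes that rose. Of 12 haematopoietic markers 3 were tested, and MPO and HBG1 had no read in the 6 libraries. TAL1 was the most abundant, at 58.0, 60.9 and 56.9 normalized CPM in control and 64.5, 63.1 and 53.2 in the knockdown, where the groups overlapped. CD44 rose, from 0.679, 0.750 and 0.563 to 2.16, 1.38 and 5.37. With a library left out CD44 was called in 2 of the 6 fits, PDGFRA in 1 and KRT8 in 3. Of 9 fibroblast markers 3 were tested, PDGFRA rose (0.42), and DCN, LUM and FAP had no read. Their summed level was 150, 156 and 141 in control and 202, 198 and 165 in the knockdown. Of 7 smooth muscle markers 5 were tested and TAGLN rose, with sums of 41.4, 38.7 and 35.1 in control and 51.3, 54.9 and 79.2 in the knockdown. TAGLN is itself a member of the actin list, and PDGFRA made up most of the fibroblast sum. The part of these cell types in the matrix and actin results was not tested.

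Of 7 neuronal markers 5 were tested and 2 rose. MAP2, a microtubule protein, went from 13.1, 19.8 and 10.5 to 53.0, 52.1 and 21.9 normalized CPM (log2 fold change 1.55). DCX, doublecortin, had 14, 8 and 3 reads in control and 82, 70 and 24 in the knockdown, and so entered the test through the knockdown libraries. TUBB3 and RBFOX3 had log2 fold changes of -0.31 and 0.01 with adjusted p by edgeR of 0.426 and 0.985. MAP2 was called in 2 and DCX in 3 of the 6 fits with a library left out. Of 6 epithelial markers 3 were tested and KRT8 rose (1.39), while KRT19 had no read.

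The called genes also differed in type and structure, which is given as a description. Of 12842 tested protein-coding genes 6.17% rose and 5.89% fell, while of 1996 long noncoding RNAs 6.01% rose and 1.65% fell. Protein-coding genes in the longest of 5 length classes (median 174000 bases) rose in 8.91% and fell in 3.58%, against 6.07% and 7.20% in the shortest. Of 273 genes with a single exon 16.1% rose, which was 9.88% of 253 without the replication-dependent histones. By chromosome the share that rose was highest on chromosome 6, at 8.94%, where most histone genes lie, and on chromosome X, at 8.32%. These shares include the genes with few control reads. By mean expression, 8.33% rose and 2.61% fell in the lowest of 5 classes of protein-coding genes, against 4.71% and 7.28% in the highest. The part of expression in the shares by type and structure was not tested.

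Finally, the NELFE response was set against that of NELFB, another subunit of the complex, for the genes already named. The difference was tested in a model of all 8 libraries, over 16852 genes. It passed for 53 genes, and for 10 of the 1758 genes called in the NELFE comparison. ERRFI1, a feedback inhibitor of the EGF receptor, differed in direction. It stood at 12.8, 18 and 20.4 normalized CPM in control, at 30.0, 29.4 and 37.7 in the NELFE knockdown and at 8.80 and 6.92 in the NELFB knockdown (difference of log2 fold changes 2.04, SE 0.214, edgeR adjusted p = 0.00116). ZFP36L1 (-0.62) and JAG1 (-0.59) had smaller increases in the NELFE knockdown than in the NELFB knockdown. The count of 53 was 32 and 27 without either NELFB library. A difference that misses the threshold, with 2 NELFB libraries, does not show that the responses are equal.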

How the data were processed

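Poly(A) RNA of HAP1 dCas9-KRAB cells was sequenced in 3 control, 3 NELFE knockdown and 2 NELFB knockdown libraries, described as independent biological replicates. P-values measure the spread between these libraries alone. The authors deposited raw counts per gene, made with STAR 2.5.4a on GRCh38 with Gencode 24 and without strand, after FastQC 0.11.6. The counts hold neither normalization nor a filter. Reads shared by near-identical or overlapping genes are not counted.

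The quasi-likelihood test of edgeR 4.0.16 (R 4.3.3; two-sided, robust, after filterByExpr and TMM scaling) was run on the 6 control and NELFE libraries, with Benjamini-Hochberg adjustment over 15966 genes and a threshold of 0.05. Fitted fold changes use a prior count of 0.125. Names were taken from GENCODE 44, where 97.5% of detected genes, holding 99.88% of reads, had an entry. In simulated libraries for this comparison over 15966 genes, edgeR recovered 79 of 100 genes changed by log2 1 and 99 of 100 changed by log2 2, with 16 false calls. The simulated libraries were drawn independently and held no variation shared across the groups. Their changed genes excluded those with few reads, and no change was smaller than log2 1. Recovery and false calls in the data can therefore differ from these numbers. Alternatives were DESeq2 1.42.0, its size factors, other filters, a replicate block, a model of 3 groups, a prior count of 2, no robust estimation and each library left out.

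The comparison, gene lists and named genes were chosen with earlier results of these data known. The rule for named genes took the pausing genes, ADAM22, genes near the guide target, the 10 largest increases and decreases (called, not overlapping, mean log2 CPM of 1 or more), the 5 smallest adjusted p in each direction, and up to 4 called members of each list per direction. Other members are given with their values only. Lists are described by counts and medians, with no test over a list. A few list members are counted but are not reported here by name.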

Additional observations from a re-analysis of the deposited data

Results flagged for a closer look

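The difference between the NELFE and NELFB knockdowns, as tested by edgeR in the model of 8 libraries, passed the threshold for 6 of the named genes. Both targets differed in the direction of their own guides, NELFE by -4.52 and NELFB by 4.44 on the log2 scale (adjusted p = 6.10e-09 for each). SKIC2, the neighbour of the NELFE guide target, was lower in the NELFE knockdown by -0.58 (SE 0.0979, adjusted p = 0.0404), and stood at 59.8 and 61.4 normalized CPM in the NELFB libraries against 56.7, 57.2 and 55.9 in control. ERRFI1 differed by 2.04 (adjusted p = 0.00116), with a log2 fold change against control of 0.92 in the NELFE knockdown and of -1.13 in the NELFB knockdown. ZFP36L1 differed by -0.62 (adjusted p = 0.0310) and JAG1 by -0.59 (adjusted p = 0.0476), and both rose in each knockdown.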

How the results depend on the processing

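No gene called with all 6 libraries changed its direction under any alternative. The NELFE log2 fold change lay between -4.36 and -4.19 with a library left out. The 947 and 811 genes called higher and lower, and the 598 and 300 of them above 1.5-fold, became 1544 and 1339 (957 and 480) without a filter on low counts. With 1 library left out the ranges were 207 to 1248 higher and 144 to 1064 lower, and above 1.5-fold 197 to 791 and 101 to 370. DESeq2 called 1170 higher and 1153 lower, of which 877 and 796 were shared. Without control 3 and NELFE knockdown 3 together, an alternative chosen after seeing the data, the counts were 1064 and 919.

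With the replicate number as a block the counts were 2369 and 2322 (993 and 512 above 1.5-fold), with 946 and 811 shared. The labels do not say that a number marks a batch. Deviations from the group mean correlated at 0.31, 0.0511 and 0.501 between libraries of number 1, 2 and 3, and NELFE knockdown 2 correlated best with control 1 (0.266), so that the numbers were not taken to pair the libraries. NELFB, NELFCD, SUPT5H and LARP7 passed the threshold with the block, and THBS1 did not. List counts rose with it as well, among others to 48 lower among ribosomal protein genes, 30 lower among DNA replication genes, 22 lower among mitosis genes, 8 lower among lamina genes, and 11, 10, 11 and 15 higher among YAP-TEAD, actin, BMP and TGF-beta and immediate early genes.

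Without the filter FOS, MYOF, TAGLN, THBS1, CDKN1A, CDKN1C, MAP2 and OLMALINC no longer passed, and the cause was not tested. The number of genes that differ between the knockdowns, 53, was 90 by DESeq2 and 27 to 78 with a library left out. At this depth, calls among genes under 10 control reads rest on few reads. The experiment used 1 clone and 1 guide for each target, and cells were taken at 1 time.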
